A study of Mus musculus with 2 samples.

Results

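The CpGs described here are those of the autosomes that lie outside the recognition site of the enzyme MspI (CCGG), had at least 20 reads on the plus strand and at least 20 on the minus strand in both libraries, and reached a pooled methylation level of at least 20% in at least 1 line. They number 58199 of the 1455444 CpGs listed in both tables, and of the 370890 CpGs of any chromosome and sequence with that many reads on each strand. CpG methylation was read by bisulfite sequencing in 2 mouse haploid embryonic stem cell lines, A129-2 (129Sv background) and AOS-14 (C57BL/6 background), both derived from AG-haploid embryos by cell sorting and grown in embryonic stem cell medium, with no treatment named. Each line has 1 library, so no value below has a replicate check, and line and strain background cannot be told apart. The A129-2 table held 153035567 read calls (78747627 plus, 74287940 minus) and that of AOS-14 held 178315194 (91451854 plus, 86863340 minus).

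A CpG reads the same on both strands, so it carries a cytosine on each. When DNA is copied, the new strand starts without methylation, and the maintenance methyltransferase Dnmt1, guided by Uhrf1, a protein that binds CpGs methylated on 1 strand only, copies the mark across. A CpG methylated on 1 strand is called hemimethylated. In these data the plus and minus strands of a CpG come from different reads. A strand difference is therefore a difference between 2 averages over many molecules, and equal levels do not show that single molecules were methylated on both strands.

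The level of a pooled CpG chose the members. Strand differences did not, and they are tested here. The mean pooled level of the members was 19.5% in A129-2 and 36.8% in AOS-14, given as a description only. Members with a highest level of 20% to 21% (2602 CpGs) had mean absolute strand differences of 5.99 points in A129-2 and 7.62 in AOS-14. The 2337 CpGs just outside, at 19% to 20%, had 5.81 and 7.62. Members whose thinnest strand had 20 to 22 reads (4395) had 10.6 and 12.1 points, and the 5151 CpGs with 17 to 19 reads on it had 11.03 and 12.2.

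Of the members, 241 lie in the RefSeq promoter windows, which run from 250 bases before to 50 after a gene's start, and 3 of the 7 windows with a called member (build GRCm38.p6, the assembly of mm10), picked after their values were seen, are printed because a member in them differed between strands in 1 or both lines. Capitals mark the member CpGs, and each sequence runs 5′ to 3′ on the strand of its gene.
Gm41315 (chr15:42942099-42942398, plus strand): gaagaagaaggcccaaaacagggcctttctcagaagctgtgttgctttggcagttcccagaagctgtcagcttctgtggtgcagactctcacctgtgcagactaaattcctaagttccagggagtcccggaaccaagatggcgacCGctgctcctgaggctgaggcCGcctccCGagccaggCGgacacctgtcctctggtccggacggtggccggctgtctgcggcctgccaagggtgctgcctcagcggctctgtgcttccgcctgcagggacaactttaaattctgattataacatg
Emid1 (chr11:5150025-5150324, minus strand): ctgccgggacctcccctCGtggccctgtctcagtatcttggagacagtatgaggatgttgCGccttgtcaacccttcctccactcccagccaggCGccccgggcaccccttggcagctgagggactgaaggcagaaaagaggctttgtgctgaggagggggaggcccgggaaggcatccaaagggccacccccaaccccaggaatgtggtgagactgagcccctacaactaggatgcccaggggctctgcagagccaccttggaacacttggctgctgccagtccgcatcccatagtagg
Arid1a (chr4:133753936-133754235, minus strand): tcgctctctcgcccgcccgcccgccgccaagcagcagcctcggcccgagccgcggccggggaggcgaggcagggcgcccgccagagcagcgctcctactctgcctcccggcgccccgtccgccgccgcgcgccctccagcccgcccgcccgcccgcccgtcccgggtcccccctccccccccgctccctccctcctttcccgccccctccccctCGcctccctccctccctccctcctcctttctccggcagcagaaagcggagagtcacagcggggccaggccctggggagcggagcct
Throughout, plus and minus are the strands of the genome build, not of the gene.

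The strand difference is the plus level minus the minus level in percentage points. A difference was called where Fisher's exact test on methylated and unmethylated reads of the strands gave an adjusted p under 0.05 (Benjamini-Hochberg over all 370890 CpGs) and the levels lay at least 25 points apart. In most members the strands lay less than 10 points apart, which is not small beside their levels. Over all members the higher strand of each CpG had a median of 21.1% and the lower 13.7% in A129-2. In AOS-14 these medians were 38.8% and 29.4%. The difference averaged 0.106 ± 12.1 points in A129-2 and 0.236 ± 13.1 points in AOS-14 (SD over 58199 members), and it was under 10 points in 72.0% and 63.5% of members. The absolute difference averaged 8.13 ± 8.91 points in A129-2 and 9.55 ± 8.98 points in AOS-14, where binomial sampling of the reads at each CpG's own level gives 4.93 and 5.55 points.

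In A129-2, 1474 members were called, 775 with the plus strand higher (0.363% of all CpGs tested had this call) and 699 with the minus strand higher (0.322% of all tested). This is 2.53% of members, against 0.684% of all CpGs tested. AOS-14 had 2418 called members, 1229 with plus higher (0.698% of all tested) and 1189 with minus higher (0.551%), or 4.15% against 1.25% of all CpGs tested. The background includes 274786 autosomal CpGs outside CCGG under 20% in both lines, which have little room for a gap of 25 points and of which 0.0913% and 0.191% were called.

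The differences recurred between the libraries. Of the members, 762 were called in both lines with the same strand higher (415 plus against 0.224% of all tested, 347 minus against 0.179%), which is 1.31% of members against 0.404% of all CpGs tested. They make up 51.7% of the calls in A129-2 and 31.5% of those in AOS-14. Only 2 members were called in both lines with opposite strands higher. Of the 1474 members called in A129-2, 1405 (95.3%) lay in the same direction in AOS-14, with a median of 26.6 points there. Of the 2418 called in AOS-14, 2215 (91.6%) lay in the same direction in A129-2, with a median of 18.01 points. Across all 58199 members the Pearson r between the lines' differences was 0.555, a description over CpGs that share libraries and reads.

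**Figure D1:**
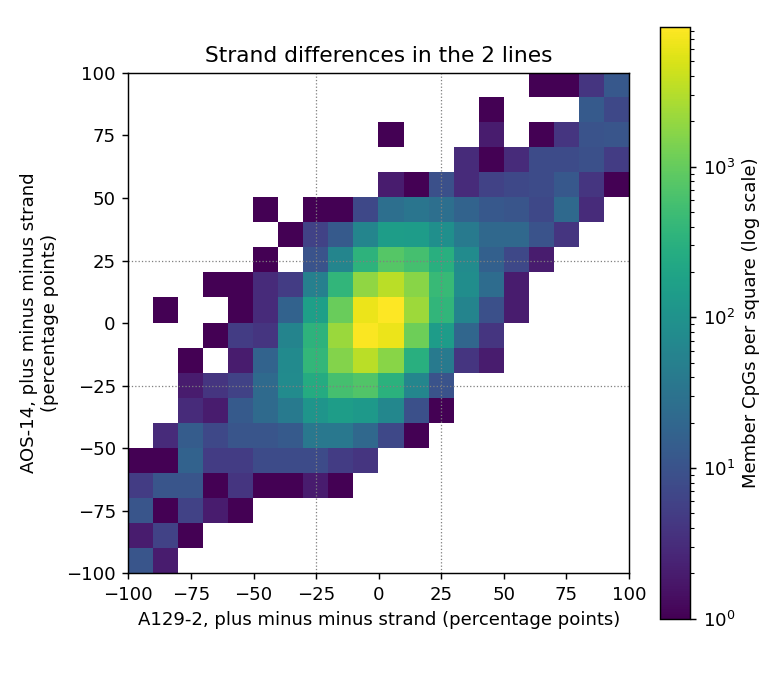
The plus-minus-minus strand difference of each of the 58199 members in A129-2 (horizontal) and AOS-14 (vertical), both in percentage points, counted in squares of 10 points with a logarithmic colour scale and dotted lines at 25 points. Members with large differences lie along the diagonal, and the corners of opposite sign are nearly empty, with 2 members called in opposite directions.

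Larger differences were called again more often in the other line. Those of 25 to 40 points lie close to the 25-point limit, so a slightly smaller value in the other line goes uncalled. The direction was the same in 93.7% of members called in A129-2 at 25 to 40 points and in 99.3% at 80 points or more. For members called in AOS-14 these shares were 89.6% and 100%. Among members called in A129-2 at 25 to 40 points (894), 32.1% were called in AOS-14 on the same strand, and the median there was 19.5 points. At 40 to 60 points (280) the share was 65.4% and the median 33.1. At 60 to 80 points (166) it was 95.8%, and at 80 points or more 133 of 134 members were called in AOS-14 too, with a median of 78.01 points. In the other direction 353 of 1786 members called in AOS-14 at 25 to 40 points were called in A129-2, and 61 of 61 at 80 points or more, with a median of 90.2 points in A129-2. The members called in a line were chosen for their size there, so only the value in the other line is free of that choice.

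**Figure D2:**
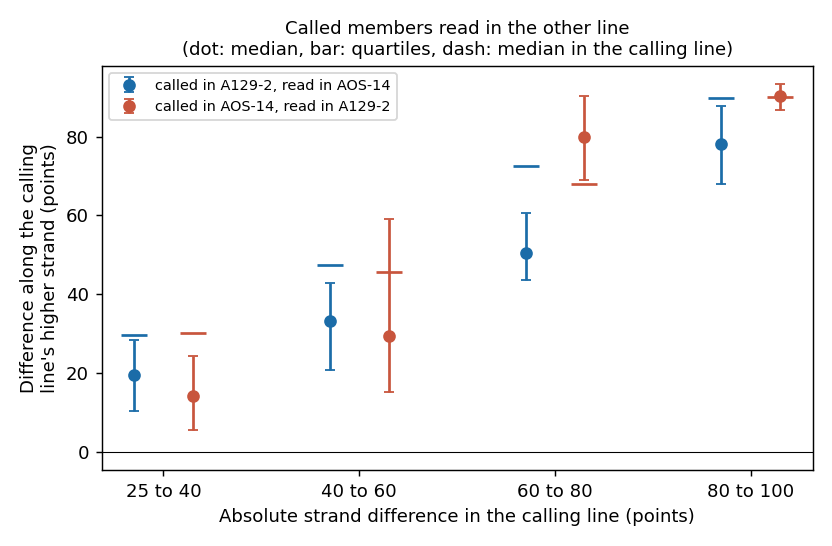
Members called in 1 line, grouped by the size of their strand difference in that line, with their difference in the other line along the same strand (dot: median, bar: quartiles, dash: median in the calling line, all in percentage points). All 8 medians in the other line are above 0, from 14.1 points at 25 to 40 points in AOS-14 to 90.2 points at 80 points or more.

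In members called in both lines, the median of the lower strand was close to that of other members' lower strands. These members were chosen for a gap of at least 25 points, so a raised higher strand follows largely from the call. Most members' levels in A129-2 leave no room for a strand to lie 25 points lower. The higher strand stood at a median of 69.3% (A129-2) and 79.6% (AOS-14). The lower strand had 14.1% and 29.8%, close to the lower strand of members called in neither line, at 13.7% and 29.5%. In AOS-14 the spread was wider, with lower-strand quartiles of 16.7% and 44.1% against 22.2% and 40.1% in members called in neither line. The higher strand also carried fewer reads. It held a median of 28.4% of the reads of the CpG in A129-2 and 38.6% in AOS-14, against 48.4% and 49.2% in members called in neither line. It was the thinner strand in 80.6% and 71.8% of members called in both lines. Among the 43986 members with at least 25% of the reads on each strand in both lines, 387 were called in both lines, and 94.8% of the calls in A129-2 kept their direction in AOS-14. The part of read depth in the strand differences was not tested beyond this.

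**Figure D3:**
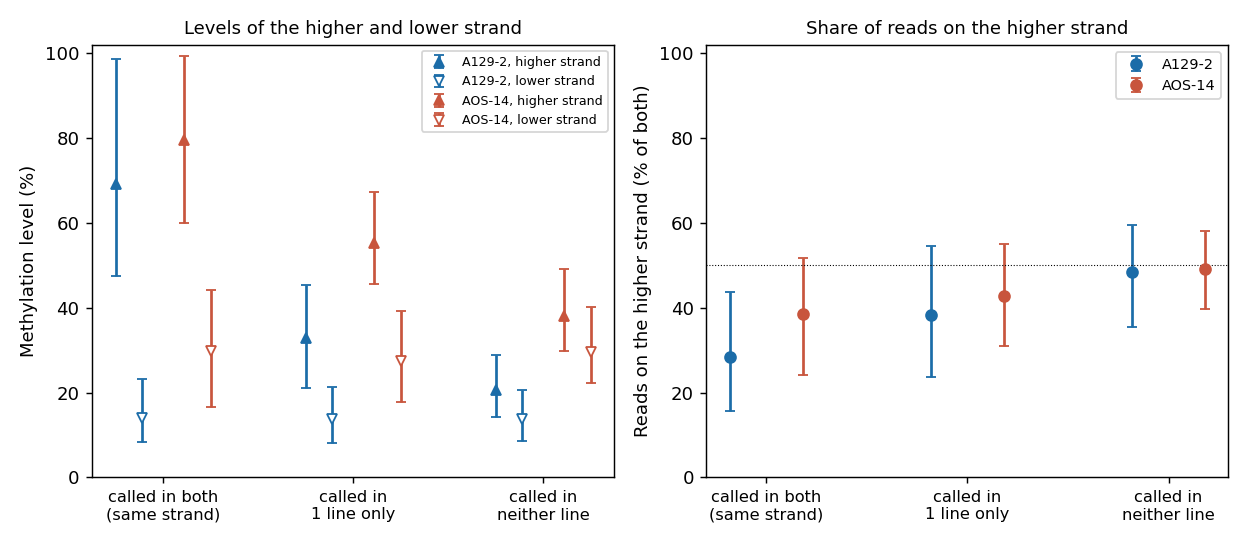
Left, methylation levels (percent) of the higher and the lower strand of members by whether they were called in both lines, 1 line or neither; right, the share of the CpG's reads on its higher strand (percent), with symbols at medians and bars at quartiles. The higher strand rises to medians of 69.3% and 79.6% in members called in both lines, while its share of reads falls to 28.4% and 38.6%.

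A group of members was methylated on nearly every read of 1 strand. In 244 members the same strand reached at least 95% in both lines, with 141 on the plus and 103 on the minus strand, and 231 of them were called in both lines. On their other strand the median level was 19.6% (A129-2) and 38.9% (AOS-14). The near-full strand carried a median of 16.0% (A129-2) and 25.8% (AOS-14) of the reads. The stricter picture of hemimethylation, at least 50% on 1 strand and under 10% on the same other strand in both lines, was met by 52 members, 25 with plus and 27 with minus higher. Without members that had a strand at 95% or more in either line, 484 members were called in both lines in place of 762.

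The clearest plus-high member lay on chromosome 12 at 51151366, inside the gene model Gm34745, in the sequence AACGC. In A129-2, 44 of 44 plus reads were methylated (100%, exact 95% interval from 91.96) and 2 of 67 minus reads (2.99%, interval 0.364 to 10.4). In AOS-14 the counts were 110 of 110 and 10 of 244 (4.10%). By Fisher's exact test the difference of 97.01 points in A129-2 had an adjusted p of 8.28e-26. The 95.9 points of AOS-14 had an adjusted p of 5.79e-77 by the same exact test. Another CpG with the same sequence and the same distances to its neighbours lies inside Ralgapa1, a gene for a GTPase-activating complex subunit, on chromosome 12 at 55650515. Its plus strand was at 100% in both lines and its minus strand at 4.07% in A129-2 and 6.19% in AOS-14.

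Most of the other leading plus-high members shared 1 sequence, TCCGC, with CpGs 14 bp to the left and 4 bp to the right. They lie inside Wdr27 (chromosome 17, 14806681), inside Prkdc, the catalytic subunit of a DNA repair kinase (chromosome 16, 15751704), inside the noncoding gene Pvt1 (chromosome 15, 62228658) and inside Capsl (chromosome 15, 9443456). Others lie between genes, on chromosome 16 at 95088624 (13.8 kb from Gm49641), on chromosome 14 at 49884974 (9.28 kb from the olfactory receptor gene Olfr722) and on chromosome 17 at 40541706 (10.8 kb from Gm29748). In these 7 CpGs every plus read was methylated in both lines, and the minus strand lay between 2.78% and 9.09%. They are the extreme of a larger set. Of all 49 members with CCGC at these distances, on either strand, 15 (30.6%) were called in both lines. Where CCGC lay on the plus strand (35 members) the median difference was 12.3 points in A129-2 and 17.7 in AOS-14. In the other 14 members it was -10.6 and -8.00. The tenth, inside Cdk5rap1, a gene for a tRNA-modifying enzyme (chromosome 2, 154325658, CTCGA), had 100% and 9.09% in A129-2 and 100% and 0% in AOS-14, where 0 of 23 minus reads were methylated.

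Among minus-high members the first lay on chromosome 10 at 125662679, 79.8 kb from Gm36884, in the sequence AGCGT. In A129-2, 6 of 525 plus reads (1.14%) and 46 of 46 minus reads were methylated. AOS-14 had 40 of 786 (5.09%) and 161 of 161. The difference of -98.9 points in A129-2 had an adjusted p of 5.82e-58 by Fisher's exact test, and that of -94.9 points in AOS-14 had 2.71e-140. This CpG has neighbours at 75 bp on the left and 30 bp on the right, the mirror image of the CpG in Gm34745, and the 4 bases around it (GCGT) are the reverse complement of those there (ACGC). The same mirror pattern held at chromosome 11, 91101434, with -97.04 and -91.7 points.

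The other 8 leading minus-high members had a minus strand at 100% in A129-2 and between 98.6% and 100% in AOS-14. Their plus strand ranged from 0.610% on chromosome 11 at 73264918, 2.57 kb from the ion channel gene Trpv3, to 10.7% on chromosome 16 at 84386728, both in A129-2. On chromosome 12, the CpG at 95248593 had -96.4 and -93.4 points, and the one at 71206971, inside 2700049A03Rik, -93.7 and -92.8. On chromosome 13 the CpGs at 71381540, 106291131, 107432407 and 110309614 had between -92.2 and -96.4 points in A129-2 and between -90.1 and -94.8 in AOS-14. The 20 leading members were ranked by the smaller of their 2 differences, so their sizes are a description.

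On average, strand differences shifted with the bases beside the CpG. The strand on which A stands before the CpG and G after it (ACGG) was more methylated than its partner, which reads CCGT. Where ACGG lay on the plus strand (3818 members) the mean difference was 2.94 points in A129-2 and 2.90 in AOS-14. In the 3684 members with CCGT on the plus strand it was -2.57 and -2.65. Read along the ACGG strand, the 7502 members had mean differences of 2.76 ± 11.6 points in A129-2 and 2.78 ± 12.3 points in AOS-14 (SD over members), and the ACGG strand was the higher one in 59.9% and 59.3% of them. The mean was above 0 on 19 of 19 autosomes in both lines.

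The strands beginning with A led in the other A contexts too. ACGA stood above its partner TCGT by a mean of 1.79 and 1.82 points (5076 members, 19 of 19 autosomes in each line). ACGC stood above GCGT by 1.23 and 1.27 points (8366 members, 17 of 19 and 19 of 19 autosomes). Mean levels on the ACGG strand were 22.4% in A129-2 and 36.4% in AOS-14, against 19.7% and 33.6% on the CCGT strand of the same CpGs. For CCGA against TCGG the means were 0.393 and 0.597 points. For CCGC against GCGG they were -0.658 and -1.65, above 0 on 5 of 19 and 1 of 19 autosomes, and for GCGA against TCGC 0.293 and 1.59. Contexts that are their own reverse complement read the same on both strands, so their plus-minus mean cannot be oriented by context. It was 0.161 and 0.208 for ACGT, 0.262 and 0.356 for GCGC and 0.0822 and 0.158 for TCGA. Means near 0 follow there from the lack of orientation and are no contrast to the other contexts. The shifts of all contexts, that of ACGG among them, are small beside the spread between CpGs.

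Called members of this context lay mostly on the ACGG side. Along the ACGG strand 138 members were called higher in A129-2 and 42 lower, and 219 and 71 in AOS-14. In both lines together 67 were called on the ACGG strand and 20 on the CCGT strand. Members called in neither line still had means of 2.15 and 2.08 points along ACGG, and members outside recurrent spacing patterns 2.96 and 3.30. In the 24265 autosomal CpGs with ACGG or CCGT under 20% in both lines, which are no members, the means were 0.249 and 0.260 points.

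Many of the recurrent differences lay in CpGs whose surroundings occur many times. A spacing pattern is taken here as the 4 bases around the CpG with the distances to the nearest listed CpG on each side, counted together with its mirror image on the other strand. Of the members, 31188 (53.6%) shared a pattern with at least 4 other members, and of those called in both lines 557 (73.1%) did. In the remaining 27011 members 205 were called in both lines, which is 0.759% of them, and no member in opposite directions. There 95.4% of the calls in A129-2 lay in the same direction in AOS-14. The files give no repeat annotation, and whether a pattern marks copies of 1 repeat was not tested.

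The pattern with the most recurrent members was CCGC with CpGs 29 bp to the left and 9 bp to the right, or its mirror GCGG. It had 330 members on 19 chromosomes, 74 of them called in both lines. Of these, 55 had the GCGG strand higher and 19 the CCGC strand. With CCGC on the plus strand the median difference over members was -6.93 points (A129-2) and -4.38 (AOS-14), and in the mirror image it was 4.65 and 6.71. The median level of these members was 23.3% and 63.1%. A smaller pattern, GCGA with CpGs at 3 and 42 bp, had 51 members, of which 26 were called in both lines, all of them with the strand reading TCGC higher. Its medians were -83.8 and -60.6 points in 1 orientation (17 members) and 44.7 and 36.6 points in the mirror image (34 members). The pattern of the leading members, ACGC with CpGs at 30 and 75 bp, had 19 members, of which 14 were called in both lines, all with the ACGC strand higher. Its medians were 94.2 and 85.0 points in 8 members and -81.5 and -80.9 points in 11 mirrored ones.

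Over the 453 patterns with at least 10 members and at least 5 in each orientation, the medians of the orientations had opposite signs in 283 (62.5%) in A129-2 and in 304 (67.1%) in AOS-14. Signs unrelated to orientation would be opposite about as often as equal, so these shares are a moderate excess. The medians of many patterns lie within a few points of zero. Their Pearson r was -0.674 and -0.634, and -0.499 and -0.518 over the 450 patterns with all medians under 40 points. These correlations describe patterns measured in the same libraries.

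**Figure D4:**
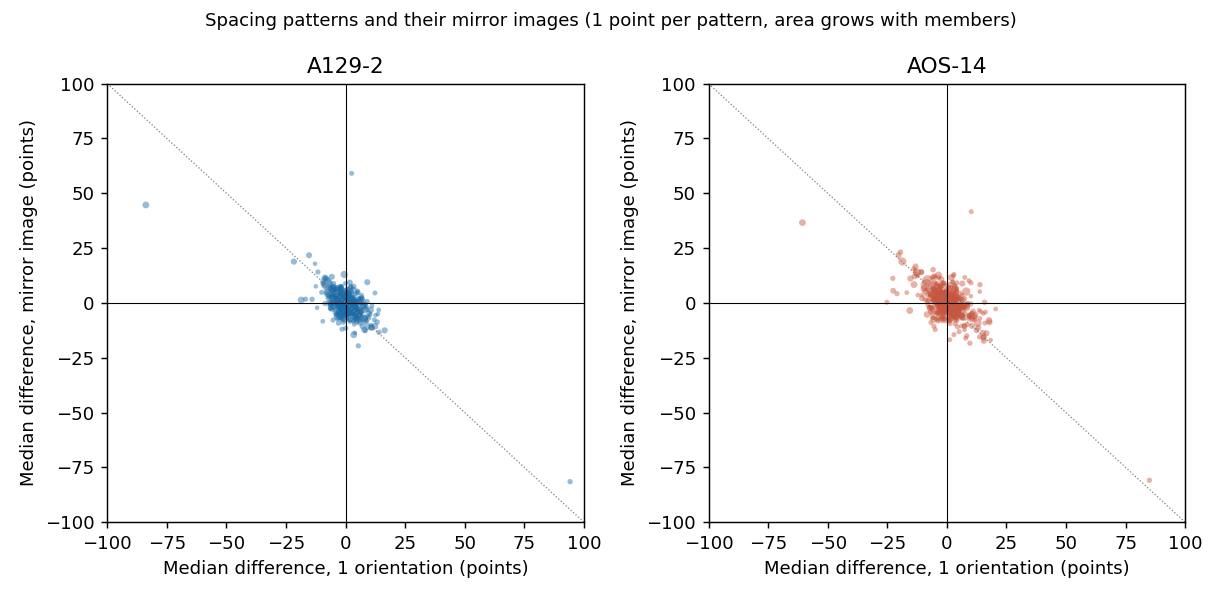
Median strand difference of the members of a spacing pattern in 1 orientation (horizontal) and in the mirror image (vertical), in percentage points, for 453 patterns with point area growing with the number of members, and the dotted line at equal and opposite values. Points lean along the dotted line in both lines, with 2 patterns far out in the corners of opposite sign, while 1 pattern of 15 members has medians of 2.53 (A129-2) and 10.2 points (AOS-14) in 1 orientation and of 59.1 and 41.6 points over 5 members in the other.

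Neighbouring members agreed. In pairs of members 2 to 10 bp apart (12851 pairs) that were both called, the same strand was higher in 133 of 135 in A129-2 and 221 of 223 in AOS-14. At 11 to 25 bp it was 59 of 61 and 114 of 116, and at 26 to 50 bp 12 of 12 and 45 of 45. Over all pairs the Pearson r of the differences was 0.549 and 0.607 at 2 to 10 bp and 0.148 and 0.215 at 51 to 100 bp, where 3 of 6 pairs called in AOS-14 had the same strand higher and no pair was called in A129-2. It was 0.261 and 0.212 in pairs further apart, up to 200 bp. Neighbours share reads, so they are not independent, and the 762 recurrent members fell into 609 runs with steps under 1 kb. The sign also shifted with the side on which the nearest listed CCGG lay. Members with CCGG 1 to 10 bp to the left had mean differences of -1.20 and -1.16 points, and those with CCGG 1 to 10 bp to the right 0.979 and 1.18. At 41 to 60 bp the signs were the other way, with 0.919 and 1.49 points on the left and -0.517 and -0.972 on the right. Each side's distance was taken by itself, and only 4 members lie at least 50 bp from a listed CCGG on both sides. A member that far from a CCGG on 1 side thus nearly always has a closer one on the other. Whether the sign goes with the distance or with the nearer side was not tested.

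Chromosome 14 held more recurrent differences than the other autosomes. Of its 2560 members 103 were called in both lines (4.02%), against 2.42% on chromosome 13, the next highest, and 0.391% on chromosome 9, the lowest. They lay in 63 runs from 5414564 to 123420010, 96 of them in patterns of at least 5 members, and 44 had a strand at 95% or more in both lines. By level, 0.558% of members with a highest level of 20% to 30% were called in both lines, 4.81% of those at 60% to 80% and 11.5% of those above.

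**Figure D5:**
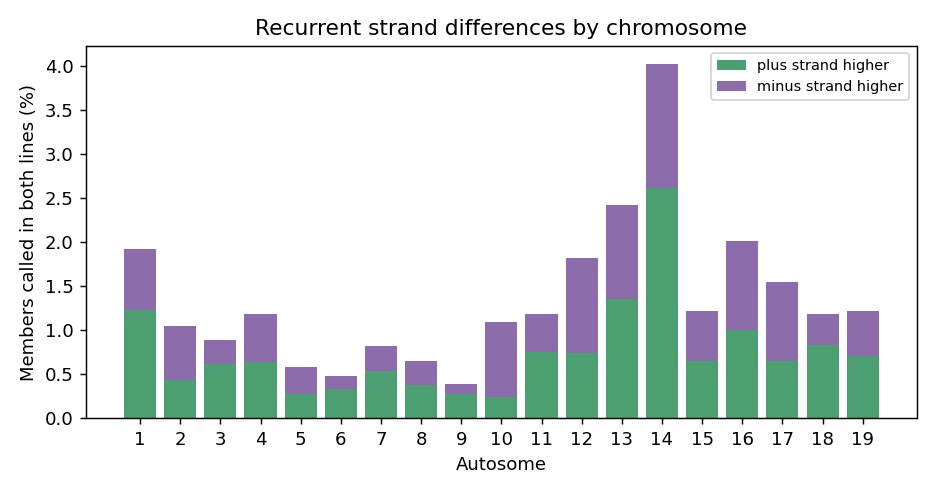
Share of the members of each autosome that were called in both lines with the same strand higher (percent), split by the strand that was higher. Chromosome 14 stands highest at 4.02% and chromosome 9 lowest at 0.391%.

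By place, 366 of the 762 recurrent members lay inside annotated genes, spread over 298 genes. The annotation used gives gene bounds without exons, so exon or intron cannot be stated. Inside genes 1.13% of members were called in both lines, within 1 kb outside a gene end 0.691%, and elsewhere 1.58%. The share rose with the number of listed CpGs within 100 bp, from 0.228% at 0 to 1 to 1.62% at 7 or more.

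Gpc6, a gene for a heparan sulfate proteoglycan on chromosome 14 (116924920 to 117979529), had 5 of its 36 members called in both lines, in 3 separate runs. Plus was higher in 3 and minus in 2. At 117180374 the plus strand stood at 100% in both lines from 49 and 212 reads, and the minus strand at 8.06% of 732 reads in A129-2 and at 32.4% of 914 reads in AOS-14. At 117861907 the minus strand stood at 100% in both lines, from 29 and 83 reads, and the plus strand at 9.80% and 20.7%. All 5 belong to recurrent spacing patterns.

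Pcdh9, a protocadherin gene of neuronal adhesion on chromosome 14, had 5 of 12 members called in both lines, all with plus higher, between 93215499 and 93216355. Its 4 CpGs in the sequence GCCGT had differences of 65.7, 47.2, 34.0 and 38.3 points in A129-2 and 57.8, 46.9, 49.1 and 35.2 in AOS-14. The GGCGA CpG between them, at 93215688, had 54.8 and 55.3 points. These 5 CpGs also belong to recurrent spacing patterns, and the 4 in GCCGT share the same one, with CpGs 21 bp to the left and 7 bp to the right.

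Fgf12, which encodes an intracellular fibroblast growth factor homologue, held 4 CpGs with minus higher within 28500693 to 28500905 of chromosome 16. Their plus strand had over 1000 reads in A129-2, at 8.85% to 12.1%, and the minus strand 22 to 27 reads, at 74.1% to 88.5%. In AOS-14 the plus strand was at 60.96% to 72.2% and the minus strand at 94.9% to 100%. The differences lay between -77.5 and -61.95 points in A129-2 and between -37.4 and -26.6 in AOS-14, and the strand-by-line test called none of the 4, which does not show that the lines are alike there. Stau2, a gene for an RNA-binding protein of transport granules, had 4 CpGs with plus higher on chromosome 1 (16452960 to 16453170), by 30.3 to 58.7 points in A129-2 and 30.2 to 44.9 in AOS-14. The pair of TCCGC CpGs there had the larger differences and the pair of CTCGA CpGs the smaller ones, in both lines. All 4 CpGs of Fgf12 and all 4 of Stau2 belong to recurrent spacing patterns.

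Eng, the gene of the TGF-beta coreceptor endoglin on chromosome 2, had 3 minus-high CpGs from 32649773 to 32649796. The first and second had 100% on the minus strand in both lines, and 7.81% and 7.58% on the plus strand in A129-2. AOS-14 had 44.3% and 20.2% there. B4galt4, a galactosyltransferase gene, had 3 plus-high CpGs on chromosome 16 (38757890 to 38757909), by 35.1 to 39.96 points in A129-2 and 26.6 to 42.01 in AOS-14. Lclat1, a gene for a lysocardiolipin acyltransferase, had 3 minus-high CpGs on chromosome 17 that ranged from -28.5 to -26.3 points in A129-2 and from -33.3 to -25.8 in AOS-14. Of these, 1 was in a pattern of at least 5 members, while all 3 in Eng and all 3 in B4galt4 were. Lipm (lipase family, chromosome 19), Pcca (propionyl-CoA carboxylase, chromosome 14) and Macrod2 (ADP-ribosylhydrolase, chromosome 2) held 3 each, of which Lipm and Pcca had plus higher at all 3 and Macrod2 at 1. In such patterns were all 3 in Pcca, 2 in Lipm and 2 in Macrod2.

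In the promoter windows 5 of 241 members were called in A129-2 and 7 in AOS-14, where 2.53% and 4.15% of all members were. Of the 241, 2 were called in both lines (1.31% of all members were), both in Gm41315 (a window that also lies inside the gene model Gm46505), at the second and the third marked CpG (42942265 and 42942272). Their plus strand had 17.9% and 19.4% in A129-2 and 20.4% and 24.9% in AOS-14, from 134 to 181 reads. The minus strand had 66.7% and 85.7% in A129-2 and 80.8% and 88.9% in AOS-14, from 21 to 27 reads. At Emid1, a gene for a secreted matrix protein, the middle CpG (5150263) had 17.6% on plus and 63.0% on minus in A129-2 (51 and 81 reads), while the CpGs beside it differed by 2.61 and -10.8 points. In AOS-14 that CpG had 42.5% and 66.0%, under the 25-point criterion. The CpG of Arid1a, a chromatin remodelling subunit, had 0% on plus (0 of 86 reads) and 43.8% on minus in A129-2, and 2.52% and 20.1% in AOS-14, where it was not called.

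The 3 sets of genes were read with 1 kb on either side. These lists were written with earlier results of these data known and are described by counts only. The 46 imprinted genes held 60 members, of which 2 were called in A129-2 and 3 in AOS-14 (2.53% and 4.15% of all members were called). Both A129-2 calls recurred. In Cobl, an actin nucleator gene next to Grb10, the CpG at chromosome 11, 12389062 (AACGC) had 91.9% on plus and 4.81% on minus in A129-2, and 98.7% and 14.8% in AOS-14. Its sequence is that of the leading CpG in Gm34745. Its AOS-14 difference of 83.8554 points equals the median of that CpG's 19-member spacing pattern, read along the ACGC strand. Whether it is a member of that pattern was not tested, so the difference is not shown to be particular to this gene. In Copg2, a coatomer gene next to Mest, the CpG at chromosome 6, 30803070 had 34.7% on plus and 4.14% on minus in A129-2, and 38.3% and 11.5% in AOS-14. The third AOS-14 call was in Trappc9 and was called in AOS-14 alone, at -28.3 points against -11.3 in A129-2.

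The 26 genes of DNA methylation and its partners held 58 members, of which 1 was called in A129-2 (1.72%, against 2.53% of all members) and 3 in AOS-14 (5.17%, against 4.15%). In Tet3, which encodes a dioxygenase that oxidises methylcytosine, the CpG at chromosome 6, 83404496 had 14.3% on plus and 39.3% on minus in A129-2, and 30.6% and 67.7% in AOS-14. It was called in both lines. The CpG within 1 kb of Uhrf1 (chromosome 17, 56324094) had 3.92% and 62.5% in AOS-14 (51 and 48 reads) and 1.37% and 10% in A129-2, where it was not called. Dnmt3b, a de novo methyltransferase gene, had 23.9% and 51.1% at 153686585 of chromosome 2 in AOS-14 and 8.67% and 28.3% in A129-2, not called there. The 35 germline genes held 50 members, with 2 neighbouring calls in A129-2 (4% of them), in the synapsis gene Sycp1, and 1 in AOS-14 (2%), in Tdrd9, a gene of the piRNA pathway. None of the germline members was called in both lines. With so few calls, no list is set apart from the members as a whole.

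CpGs inside CCGG, read under the same rule for reads and level, are set beside the members. Of 11989 such CpGs 4.75% were called in A129-2 and 10.1% in AOS-14, against 2.53% and 4.15% of the members. In AOS-14 plus was higher in 868 of them and minus in 338. Of the A129-2 calls there 81.9% were called in AOS-14 on the same strand, against 51.7% for the members. No test was made between these classes.

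Whether the strand difference differed between the lines was tested for each member with a logistic model, on the scale of the odds of methylation and not in points. Members whose differences lie far apart in points can therefore go uncalled, as those in Fgf12 did. A likelihood ratio test of the strand-by-line term, with Benjamini-Hochberg adjustment over all CpGs tested, called 111 members (0.191%, against 0.0383% of all CpGs tested), with the differences at least 25 points apart. The strand difference was larger in A129-2 in 61 of them, and the signs were opposite in 79. Of the 710 members called in A129-2 alone 41 passed this test, and of the 1654 called in AOS-14 alone 25 did. For the others, a call in 1 line only does not show that the lines differ. Nor does a miss in the strand-by-line test show that the lines are alike at a member.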

How the data were processed

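Genomic DNA of 2 lines was bisulfite-sequenced, with 1 library each. Per the labels' protocols a mouse methylation capture panel was used, while the sample titles name reduced representation sequencing. BSMAP and build mm10 are named, per the submitters' processing notes; its version, the trimming and the treatment of duplicates or of reads that map to several places were not given in the sources used here. The authors deposited counts of reads and methylated reads per CpG, for each strand and together, and the level as a fraction, which equalled the count ratio within 0.0005. Positions were raised by 1.

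Each line's strands were compared with Fisher's exact test, two-sided. Lines were compared with a likelihood ratio test of the strand-by-line term in a logistic model of the reads (1 degree of freedom). Both tests were tested on simulated data, where the strand-by-line test missed more of the planted changes than the strand test. The exact 95% interval at 20 reads runs from 27.2% to 72.8% for 10 methylated reads, and covers counting error only. Reads of 1 library are not replicate cultures. Python 3.11.15, numpy 2.4.6, pandas 2.3.3, scipy 1.17.1, numba 0.67.0 and matplotlib 3.10.9 were used. All 251 member positions in promoter sequences fell on CG. Members, gene lists and tests were chosen with earlier results of these data known. Spacing patterns, mirror images and the subsets by read share were added after seeing the data. Named CpGs are the 10 in each direction with the largest smaller difference of the lines, 1 per run with steps under 1 kb, up to 3 called on opposite strands, 3 called in each line alone with the largest strand-by-line difference, up to 10 genes with at least 3 recurrent members (no predicted models) and called members of the lists, of whose 46, 35 and 26 genes the annotation held 45, 35 and 25.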

Additional observations from a re-analysis of the deposited data

Results flagged for a closer look

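The strand difference of a CpG was set against the same contrast in the other line, and the strand-by-line test called 111 members. The values below are A129-2 minus AOS-14, and each compares 1 library with 1 library.

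On chromosome 8 at 42664943 both lines were called with opposite strands higher. A129-2 had 26.6% on plus (143 reads) and 73.9% on minus (23 reads), and AOS-14 had 56.8% (95 reads) and 8.51% (47 reads), a gap of -95.7 points. The other member called on opposite strands lies in the same run.

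In 3 members called in A129-2 alone the minus strand was higher there. The CpG on chromosome 16 at 77938426 had 11.3% on plus and 94.1% on minus in A129-2, against 42.3% and 33.7% in AOS-14, a gap of -91.5 points. On chromosome 4 at 3473208 the levels were 19.5% and 82.2% against 58.1% and 47.01%, a gap of -73.8 points. On chromosome 9 at 12138306 they were 29.03% and 76.0% against 70.6% and 46.3%, a gap of -71.3 points.

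In 3 members called in AOS-14 alone the plus strand was higher there. On chromosome 18 at 74360950, 0.966 kb from Cfap53, AOS-14 had 100% on plus (27 reads) and 29.03% on minus, against 30.6% and 28.1% in A129-2, a gap of -68.5 points. Inside Tbc1d22a on chromosome 15 at 86223557 it had 46.8% and 12.5% against 21.7% and 51.9%, a gap of -64.4 points. On chromosome 12 at 88194845, 12.95 kb from Pramel51, it had 73.9% and 32.6% against 1.21% and 21.5%, a gap of -61.5 points.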

How the results depend on the processing

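The counts depend on depth and criteria, and the direction of the ACGG context was the same under all alternatives that kept such members. Counts are given in the order called in A129-2, called in AOS-14 and called in both (reported: 1474, 2418 and 762). With at least 50 reads per strand they were 763, 1020 and 385, at 15 points 2585, 4483 and 1280, and at 40 points 580, 632 and 354. With 1 member per locus they were 687, 1122 and 381, with each strand thinned to 20 reads 297, 233 and 168. Outside spacing patterns of at least 5 members they were 480, 958 and 205, and without members with under 25% of reads on a strand 839, 1433 and 387. With 20% required in both lines AOS-14 had 1285. Without strands at 95% or more 484 were called in both. Only 4 members lie at least 50 bp from a listed CCGG, with 1, 0 and 0 calls, so the part of that distance was not tested. The 111 strand-by-line calls became 45 at 40 points, 73 with 20% in both lines, 39 with 1 member per locus, 24 outside spacing patterns, 71 without thin strands, and 0 both when thinned and away from CCGG. The other 85 of 118 values stayed within 1.5 times (counts) or 1 SD over members (means). That SD is of the size of the means or larger, so the means could hardly leave it. The 15- and 40-point settings cannot move the means at all. With each strand thinned, the mean absolute differences rose from 8.13 to 11.4 points in A129-2 and from 9.55 to 14.1 in AOS-14, still within that limit. Among 54 differences of named CpGs, 5 lost their call when thinned and 0 when centred on the median. All 5 belong to the CpGs flagged above for differing between the lines. They are 42664943 on chromosome 8 in both lines, 12138306 on chromosome 9 in A129-2, and 86223557 on chromosome 15 and 88194845 on chromosome 12 in AOS-14. The leading recurrent members all kept their calls, which gaps of their size could hardly lose at 20 reads per strand. Centring took off only 0.0449 points in A129-2 and 0.193 in AOS-14, so it could hardly remove a call. No paired analysis was possible because each line has 1 library. Patterns, strands at 95%, read share and chromosome 14 were chosen after seeing the data.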

Other observations

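The X chromosome, which the choice of members leaves out, held 3036 CpGs outside CCGG under the same rule for reads and level. Of these 64 (2.11%) were called in A129-2 and 116 (3.82%) in AOS-14, and 25 in both lines with the same strand higher, 7 with plus and 18 with minus. Of the A129-2 calls 90.6% lay in the same direction in AOS-14. Along the ACGG strand the 277 CpGs with ACGG or CCGT had mean differences of 1.72 ± 14.2 points in A129-2 and 1.04 ± 14.9 points in AOS-14 (SD over CpGs), and along ACGA the 267 CpGs had 2.40 and 1.40 points.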
